A study of Mus musculus with 9 samples.

Results

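The endoplasmic reticulum (ER) is the main calcium store of the hepatocyte, and 10 genes that fill, open, sense and buffer that store were followed here across 9 RNA-seq libraries of primary mouse hepatocytes. The genes were taken by name from the 54532 genes of the expression table: the calcium pump Atp2a2, the inositol trisphosphate (IP3) receptors Itpr1, Itpr2 and Itpr3, the calcium sensors Stim1 and Stim2, the entry channel subunits Orai1 and Orai3, and the luminal calcium-binding proteins Sdf4 and Calu. All 10 were found, and all 10 passed the filter for testing. They were chosen for their roles in calcium handling, with earlier results of these data known.

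Calcium is pumped into the ER lumen by the SERCA ATPase and is released into the cytosol when IP3, made by phospholipase C after a hormone binds its receptor, opens the IP3 receptors. When the lumen empties, STIM proteins in the ER membrane sense the loss and open ORAI channels in the plasma membrane, and the calcium that enters refills the store. Many ER chaperones need luminal calcium to fold proteins, and in liver the same calcium signals carry the response to vasopressin and adrenaline.

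The study set 3 groups of 3 libraries beside each other. The CKO Tu group came from COX-2fl/fl mice carrying Alb-Cre, in which Cre under the albumin promoter deletes the gene for cyclooxygenase-2 in hepatocytes, and its cells received tunicamycin at 6 μmol/L for 24 hours. The WT Tu group received the same treatment and the WT DMSO group the vehicle, both in cells from littermates that carry the floxed COX-2 alleles but lack Cre. All mice were C57BL/6, described as male and age-matched, and all cells were kept in 1% serum for 2 hours before treatment. Tunicamycin blocks N-glycosylation and so fills the ER with unfolded glycoproteins. A CKO group with vehicle is not analysed here, so CKO Tu set against WT Tu shows a genotype difference under tunicamycin and not a difference in the response to it.

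Libraries held 14897358 to 16001484 assigned fragments and 11176 to 11324 genes at FPKM of at least 1, a level in fragments per gene length and library size. On the second principal component, with 23.2% of the variance, WT Tu replicate 1 lay away from its group, and it had the highest mitochondrial share, 6.87% of fragments. Counts of members are therefore also given without it. Ptgs2, the gene for COX-2, had 1, 1 and 2 fragments in CKO Tu, 8, 5 and 5 in WT Tu and 0, 13 and 8 in WT DMSO. Although the labels describe males in both genotypes, Xist averaged 0.00359 ± 0.00623 FPKM in CKO Tu, 113 ± 16.5 in WT Tu and 76.1 ± 2.98 in WT DMSO, and the Y-linked Ddx3y averaged 23.8 ± 1.22 FPKM in CKO Tu and had 0 fragments in all 6 WT libraries (SD, n = 3). Genotype and this sex-linked difference cannot be told apart in any CKO Tu value below. Nothing in the labels ties the 3 replicates of a group to separate animals, so the p-values cover the scatter among libraries, which may be technical.

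Tunicamycin moved genes of the store in both directions. In WT Tu against WT DMSO the pump gene Atp2a2 and the luminal binder gene Calu rose, while all 3 IP3 receptors, both STIM genes and both ORAI genes fell and Sdf4 did not pass the test. That is 9 of 10 members called by limma at an adjusted p below 0.05, with 2 higher and 7 lower, where 33.6% of all genes tested were called, 17.7% higher and 15.9% lower. WT Tu and WT DMSO libraries lay wholly apart for the same number, 9 of 10, and for 46.7% of all genes. The median change of the members was -0.28 on the log2(FPKM + 1) scale, beside -0.0015 over all genes tested. Without WT Tu replicate 1 the count was again 9, with 2 higher and 7 lower, but it was 6, with 2 higher and 4 lower, without WT Tu replicate 3, WT DMSO replicate 1 or WT DMSO replicate 2. In each of these cases Itpr1, Itpr2 and Orai3 lost their calls. Bulk RNA cannot tell fewer cells of a type from less RNA per cell.

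In CKO Tu against WT Tu, 5 of 10 members were called, 2 higher and 3 lower, where 38.3% of all genes were called, 18.7% higher and 19.6% lower. Stim2 and Orai3 were higher, and Atp2a2, Itpr3 and Orai1 were lower. Itpr3 entered the test only through the 6 WT libraries, where it was higher. Its place in this count, and in that of CKO Tu against WT DMSO, is therefore no support for a fall. Libraries of the 2 groups lay wholly apart for 6 of 10 members, beside 51.2% of all genes, and the median change was 0.11 beside -0.0021. Without WT Tu replicate 1, 6 members were called, 3 higher and 3 lower, as Calu then passed, and 4 to 6 were called over all libraries left out in turn. Between CKO Tu and WT DMSO, 6 were called, 3 higher and 3 lower, where 49.5% of all genes were called, 25.3% higher and 24.2% lower, and 7 of 10 members lay wholly apart, beside 63% of all genes. The 3 comparisons share their libraries in pairs, so their values are given side by side and are not independent of each other.

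**Figure D1:**
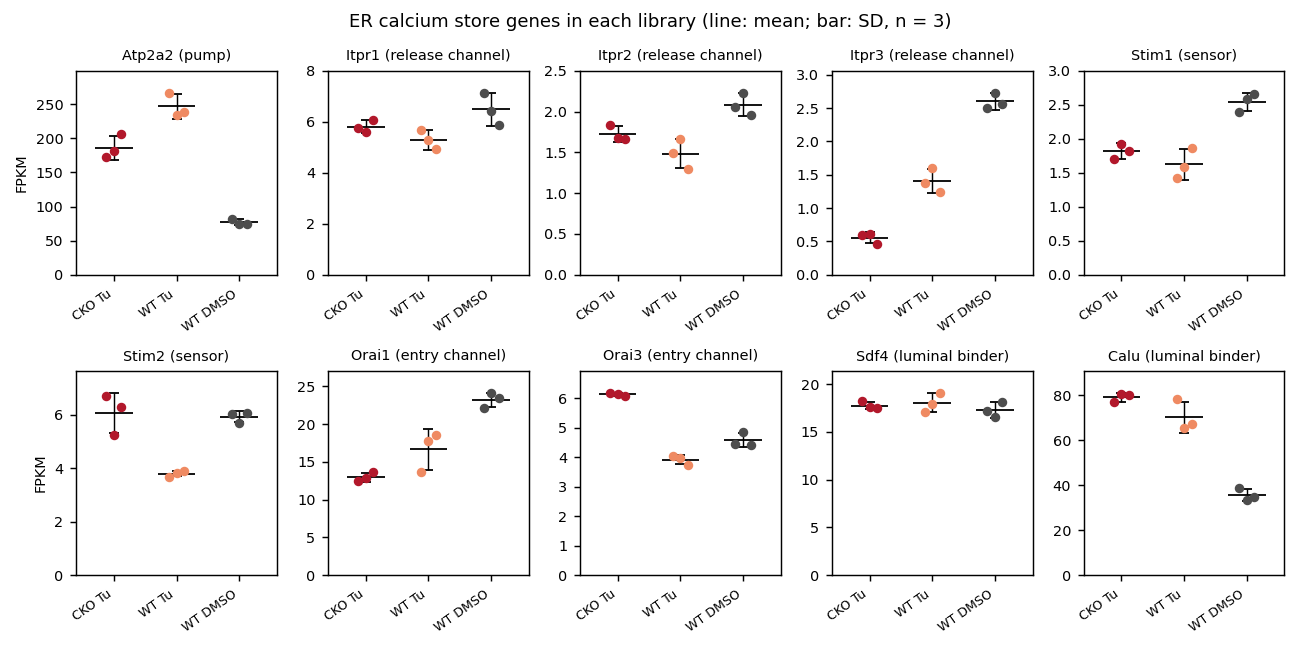
FPKM of the 10 genes in each library, with 1 panel per gene and its own axis from 0, and the groups CKO Tu, WT Tu and WT DMSO from left to right. Points are libraries, lines are means and bars are SD (n = 3). Atp2a2 and Calu sit far higher in both tunicamycin groups than in WT DMSO, and Itpr3 steps down in each tunicamycin group.

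Sequence around the start of transcription was available for 8 of the 10 members in RefSeq (build GRCm38.p6), in 11 windows of 300 bases that run from 250 bases before to 50 bases after an annotated start. Atp2a2 and Itpr1 are named only. The unfolded protein response acts on promoters through the ER stress response element (ERSE), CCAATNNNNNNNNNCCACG, in which a CCAAT box and a CCACG box lie 9 bases apart. Both boxes are shown in capitals, on either strand, in the windows of Calu, which rose with tunicamycin, and of Itpr2, Itpr3 and Orai1, which fell.
Calu, chr6:29347856-29348155, plus strand: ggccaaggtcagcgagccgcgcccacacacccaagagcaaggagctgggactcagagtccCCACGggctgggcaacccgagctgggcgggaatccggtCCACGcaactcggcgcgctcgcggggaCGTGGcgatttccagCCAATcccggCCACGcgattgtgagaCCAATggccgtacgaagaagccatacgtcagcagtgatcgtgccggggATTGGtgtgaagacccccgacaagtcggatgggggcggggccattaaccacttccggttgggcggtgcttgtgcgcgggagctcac
Itpr2, chr6:146502174-146502473, minus strand: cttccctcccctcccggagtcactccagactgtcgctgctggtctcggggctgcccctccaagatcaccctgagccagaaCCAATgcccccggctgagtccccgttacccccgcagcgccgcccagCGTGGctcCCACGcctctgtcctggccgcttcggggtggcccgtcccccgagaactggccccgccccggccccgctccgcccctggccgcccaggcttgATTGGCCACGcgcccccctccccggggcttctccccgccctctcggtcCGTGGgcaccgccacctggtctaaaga
Orai1, chr5:123014824-123015123, plus strand: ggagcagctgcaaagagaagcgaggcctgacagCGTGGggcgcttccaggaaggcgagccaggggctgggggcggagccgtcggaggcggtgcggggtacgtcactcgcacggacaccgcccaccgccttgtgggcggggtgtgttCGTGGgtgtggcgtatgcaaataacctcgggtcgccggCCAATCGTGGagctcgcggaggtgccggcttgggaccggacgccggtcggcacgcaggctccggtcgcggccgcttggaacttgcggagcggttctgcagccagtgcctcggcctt
Itpr3, chr17:27057054-27057353, plus strand: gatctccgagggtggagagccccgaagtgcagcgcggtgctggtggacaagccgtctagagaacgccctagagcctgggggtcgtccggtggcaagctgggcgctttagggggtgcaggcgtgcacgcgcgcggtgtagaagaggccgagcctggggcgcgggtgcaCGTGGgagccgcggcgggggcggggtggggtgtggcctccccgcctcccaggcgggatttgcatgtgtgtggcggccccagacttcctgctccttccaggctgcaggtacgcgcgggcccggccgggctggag
The Calu window held 3 CCAAT and 4 CCACG matches. Among genes that fell, the Itpr2 window held 2 and 4, that of Stim2 1 and 5, and that of Orai1 1 and 3. The Orai3 window held 1 and 2, that of Itpr3 0 and 1, and that of Stim1 none of either. Every gene that fell and had a window held fewer CCAAT matches than Calu. Itpr1, which fell, and Atp2a2, which rose, had no window. One CCAAT box of Calu, at bases 141 to 145 of the window, was followed on the same strand by a CCACG box at bases 151 to 155, with 5 bases between them where the ERSE has 9. In the Itpr2 window a CCAAT box read on the opposite strand, at bases 226 to 230, was directly followed by a CCACG box at bases 231 to 235, where ERSE-II (ATTGGNCCACG) has 1 base between them. Searched on both strands, the full ERSE was in 0 of the 11 member windows, beside 0.119% of all 32851 windows. ERSE-II, the core of the unfolded protein response element (TGACGTGG) and the core of the amino acid response element (TTGCATCA) were also in 0 of 11, beside 0.0365%, 0.676% and 0.895% of all windows. CCAAT was in 7 of 11 member windows and in 37.4% of all windows, and CCACG in 7 of 11 and in 32.8%. The 5-base boxes lie inside the longer motifs that contain them, and 4 of the 11 windows are alternative starts of Sdf4. Neighbouring Sdf4 windows overlap, and the CCAAT match of its windows 3 and 4 is the same box, counted in each. These matches describe letters in the windows only.

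**Figure D2:**
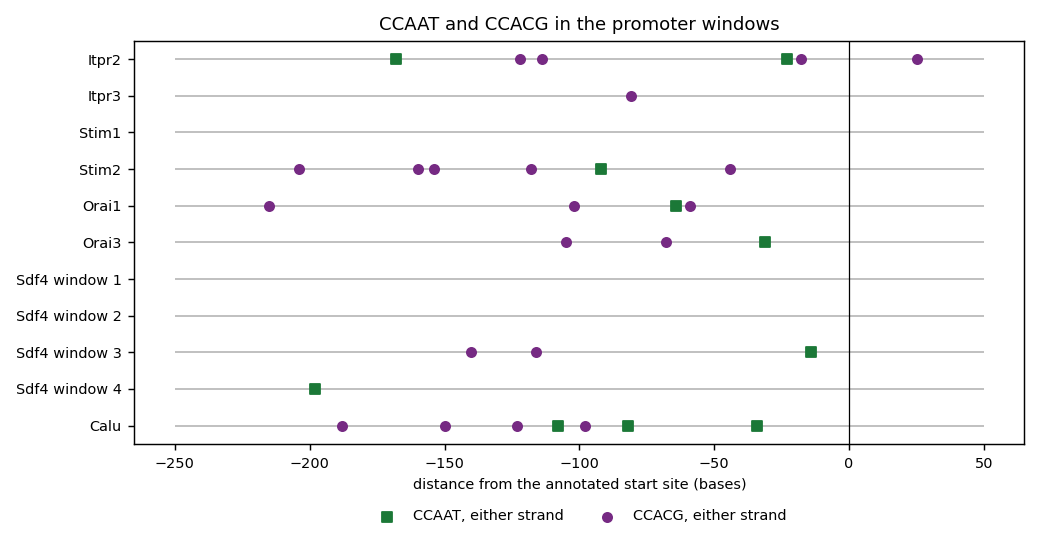
Positions of CCAAT and CCACG matches in the 11 member windows, as distance in bases from the annotated start of transcription, with 1 line per window and no window for Atp2a2 or Itpr1. Among genes that fell, Itpr2 and Stim2 carry as many CCACG boxes as Calu or more, and Orai1, Orai3, Itpr3 and Stim1 carry fewer.

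Atp2a2 (ENSMUSG00000029467, chromosome 5, 122453513 to 122502225, minus strand, mm10) encodes SERCA2, the pump that fills the store in most cells outside fast muscle. It was at 172, 181 and 206 FPKM in CKO Tu, at 267, 234 and 239 FPKM in WT Tu, and at 81.8, 74.7 and 74.8 FPKM in WT DMSO. All libraries of a group lay apart from those of the others, with WT Tu highest and WT DMSO lowest. Atp2a2 rose 3.20-fold in WT Tu against WT DMSO, a log2 change of 1.66 ± 0.08 (SE; limma adjusted p = 2e-06). It was lower in CKO Tu than in WT Tu by 0.41 ± 0.08 on the log2 scale, at 0.754 times the level (limma adjusted p = 0.0048), and still 2.41 times the WT DMSO level (limma adjusted p = 4.4e-06). These calls held in all 21 alternative settings.

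Of 7 other SERCA pumps and regulators, 3 passed the filter, and 2 rose and 0 fell in WT Tu against WT DMSO. For this list and those below, the shares over all genes tested in that comparison were 17.7% higher and 15.9% lower. Pdia3, an ER oxidoreductase, rose by 2.64 ± 0.10 and Tmx1, a membrane thioredoxin of the ER, by 0.28 ± 0.07 (SE; limma adjusted p = 0.012). With scaling to total fragments 1 of the 3 was called. Tmem203 changed by 0.06 (limma adjusted p = 0.88). CKO Tu against WT Tu gave 0 calls among the 3 by limma, 0 by voom on the recovered fragments and 0 at an unadjusted limma p below 0.05.

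Release from the store runs through the IP3 receptors, tetrameric channels of the ER membrane. Itpr1 (ENSMUSG00000030102, chromosome 6, 108213096 to 108551109, plus strand) was the most abundant of the 3 per length in every group. It was at 5.74, 5.58 and 6.08 FPKM in CKO Tu, at 5.66, 5.27 and 4.91 FPKM in WT Tu, and at 7.14, 6.42 and 5.88 FPKM in WT DMSO. WT Tu lay wholly below WT DMSO, while CKO Tu overlapped both WT groups. Itpr1 fell by 0.25 ± 0.08 on the log2 scale in WT Tu against WT DMSO (SE; limma adjusted p = 0.037), a call that was lost in 8 of 21 settings. It was lost without WT Tu replicate 2 or 3 (limma adjusted p = 0.0769 and 0.104), without WT DMSO replicate 1 or 2 (0.109 and 0.0828) and without CKO Tu replicate 1 or 2 (0.0556 and 0.0536). The change of 0.12 ± 0.08 in CKO Tu against WT Tu did not pass (limma adjusted p = 0.27; 95% interval -0.06 to 0.29).

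Itpr2 (ENSMUSG00000030287, chromosome 6, 146108299 to 146502223, minus strand), known as the main IP3 receptor protein of rodent hepatocytes, was at 1.83, 1.67 and 1.66 FPKM in CKO Tu, at 1.49, 1.66 and 1.30 FPKM in WT Tu, and at 2.06, 2.23 and 1.96 FPKM in WT DMSO. WT DMSO was highest, and the 2 tunicamycin groups met almost without a gap. Itpr2 fell by 0.31 ± 0.09 on the log2 scale in WT Tu against WT DMSO (SE; limma adjusted p = 0.022). That call was lost in 5 of 20 settings, among them without WT Tu replicate 3 (limma adjusted p = 0.0655), WT DMSO replicate 1 (0.0505) and WT DMSO replicate 2 (0.0772). The change of 0.13 ± 0.09 in CKO Tu against WT Tu did not pass (limma adjusted p = 0.26; 95% interval -0.06 to 0.33).

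Itpr3 (ENSMUSG00000042644, chromosome 17, 27057304 to 27122223, plus strand), the receptor best known from cholangiocytes and other secretory epithelia, showed the widest spread between groups of the 3. It was at 0.589, 0.617 and 0.467 FPKM in CKO Tu, at 1.38, 1.60 and 1.24 FPKM in WT Tu, and at 2.50, 2.73 and 2.56 FPKM in WT DMSO. The 3 groups lay in that order with no overlap. It was tested through the 6 WT libraries, as no CKO Tu library reached FPKM of 1. Its calls as lower in CKO Tu thus rest on a filter passed by the higher groups. With no filter, the limma adjusted p for CKO Tu against WT Tu was 0.00433. Itpr3 fell to 0.541 times the WT DMSO level in WT Tu (log2 change -0.58 ± 0.09, limma adjusted p = 0.0017) and to 0.397 times the WT Tu level in CKO Tu (limma adjusted p = 0.0011). In CKO Tu it stood at 0.215 times WT DMSO (limma adjusted p = 1.3e-05). The pseudocount of 1 shrinks changes at this level: the CKO Tu against WT Tu change of -0.62 on the log2(FPKM + 1) scale was -1.19 with a pseudocount of 0.1.

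Markers of other cell types moved beside Itpr3. The 9 endothelial markers summed to 3.49 to 4.04 FPKM in CKO Tu, 4.76 to 5.90 in WT Tu and 11.2 to 11.8 in WT DMSO. These sums lay in the same order as Itpr3 with no overlap. Only 4 of the 9 passed the filter, and 0 were higher and 4 lower in WT Tu against WT DMSO. In CKO Tu against WT Tu 0 of the 4 were higher and 1 lower, with a median of -0.085. Of all genes tested 18.7% were higher and 19.6% lower there. The 8 lymphocyte and neutrophil markers summed to 0.0105 to 0.0264 FPKM in CKO Tu, 0.178 to 0.744 in WT Tu and 0.446 to 0.733 in WT DMSO, with Ms4a1, Nkg7, S100a8, S100a9 and Ly6g at 0 in CKO Tu. The 6 cholangiocyte markers summed to 34.3 to 38.3 FPKM in CKO Tu, 22.8 to 24.3 in WT Tu and 22.7 to 25.9 in WT DMSO, and Krt19 averaged 0.487, 0.474 and 0.672 FPKM in these groups. The 8 Kupffer cell markers summed to 92.5 to 107 FPKM in CKO Tu, 96.8 to 115 in WT Tu and 74.1 to 91.2 in WT DMSO, with Adgre1, Clec4f, Timd4, Vsig4 and Cd5l at 0 in CKO Tu, and the 8 stellate cell markers to 6.52 to 7.25, 5.04 to 5.87 and 5.42 to 6.55 FPKM. Hepatocyte markers were high in every library, with 8 genes summing to 14100 to 15000 FPKM in CKO Tu, 16000 to 17500 in WT Tu and 16100 to 18000 in WT DMSO. Of the 8, 7 were higher and 1 lower in CKO Tu against WT Tu, beside 18.7% and 19.6% of all genes tested. Of the Kupffer cell markers only 1, Cd68, passed the filter, and of the cholangiocyte markers only 2, Sox9 and Spp1. Those genes make up most of the 2 sums, which are therefore no measure of these cells as a whole. The part of any of these cell types in the Itpr3 result was not tested.

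The make-up of the IP3 receptor messages also differed between groups, on a measure that does not depend on the scaling of a library. The shares of a library add up to a whole, so a lower Itpr3 share raises the others. Itpr3 made up 6.92 ± 1.11% of the FPKM of the 3 receptors in CKO Tu, 17.2 ± 1.42% in WT Tu and 23.3 ± 1.76% in WT DMSO (SD, n = 3). Itpr1 made up 71.8 ± 2.01% in CKO Tu, 64.7 ± 2.52% in WT Tu and 58.0 ± 2.64% in WT DMSO. Neither share overlapped between any pair of groups (exact permutation p = 0.1 each, two-sided, the smallest that 3 against 3 can give). Itpr2 held 21.3 ± 1.11%, 18.1 ± 1.11% and 18.7 ± 0.999% in CKO Tu, WT Tu and WT DMSO, with WT Tu and WT DMSO overlapping (exact permutation p = 0.5).

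**Figure D3:**
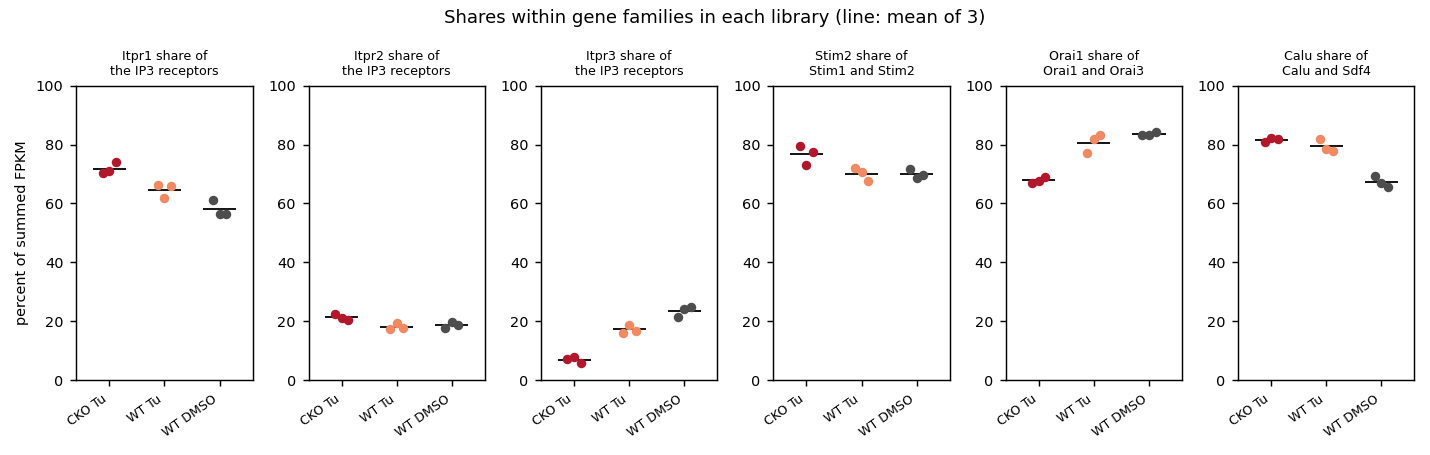
Share in percent of summed FPKM for the 3 IP3 receptors, Stim2 of both sensors, Orai1 of Orai1 and Orai3, and Calu of both luminal binders, with CKO Tu left of WT Tu and WT DMSO. Points are libraries and lines are means (n = 3). The shares of Itpr3 and of Orai1 are lowest in CKO Tu, at 6.92% and 67.8% on average.

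Genes that act upstream of the receptors fell as well in WT Tu against WT DMSO. Of 14 genes for receptors, G proteins and phospholipases that make IP3, 6 passed the filter, and 0 rose and 6 fell, with a median of -0.36 (5 fell without WT Tu replicate 1, and 3 were called with the filter at FPKM of 5). Avpr1a, the hepatic vasopressin receptor, changed by -0.62 ± 0.12, Plcg1 and Plce1, both phospholipases C, by -0.48 ± 0.08 and -0.37 ± 0.08, and Gna11, a G protein alpha subunit that activates phospholipase C, by -0.35 ± 0.08 (SE). Against WT Tu, 3 of the 6 were higher in CKO Tu and 0 lower (5 called with library weights, 3 higher and 2 lower). Of all genes tested 18.7% were higher and 19.6% lower. Avpr1a was 1 of the 3 and passed the filter mainly through the CKO Tu libraries, at 1.95 ± 0.374 FPKM in CKO Tu, 0.275 ± 0.0534 in WT Tu and 0.963 ± 0.0900 in WT DMSO (SD, n = 3), so its place in that count is no support for a rise.

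Of 17 genes whose products bind, modify or degrade IP3 receptors, 12 passed the filter, and in WT Tu against WT DMSO 6 rose and 4 fell. Erlin1, part of a complex that removes activated receptors, rose by 1.38 ± 0.10, and Erp44, a luminal protein that inhibits the type 1 receptor, by 0.51 ± 0.09 (SE). Itpripl2 changed by -0.95 ± 0.10 (SE). Between CKO Tu and WT Tu 2 were higher and 4 lower in CKO Tu, and Itpripl2 fell by 2.05 on the log2 scale. Without CKO Tu replicate 2, or with no filter, 0 were higher and 3 lower.

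Other release and leak routes of the ER were mixed, with 8 of 13 genes tested, 3 higher and 1 lower in WT Tu against WT DMSO. Sec61a1, the translocon pore through which calcium can leak, rose by 1.26 ± 0.06 and Tmbim6 by 0.30 ± 0.07, while Grina changed by -0.38 ± 0.09 (SE). CKO Tu had 2 of them higher and 3 lower than WT Tu, or 25% and 37.5%, beside 18.7% and 19.6% of all genes tested. The ryanodine receptors Ryr1, Ryr2 and Ryr3 were below the filter.

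Stim1 (ENSMUSG00000030987, chromosome 7, 102267806 to 102437319, plus strand) and Stim2 (ENSMUSG00000039156, chromosome 5, 53998499 to 54121057, plus strand) encode the sensors, of which STIM2 responds to smaller losses of luminal calcium. Stim1 was at 1.71, 1.93 and 1.82 FPKM in CKO Tu, at 1.42, 1.59 and 1.87 FPKM in WT Tu, and at 2.39, 2.59 and 2.66 FPKM in WT DMSO. Both tunicamycin groups lay below WT DMSO and overlapped each other. Stim1 fell to 0.640 times the WT DMSO level in WT Tu (log2 change -0.43 ± 0.09, limma adjusted p = 0.0057). The 0.11 ± 0.09 between CKO Tu and WT Tu did not pass (limma adjusted p = 0.38; 95% interval -0.09 to 0.31). Stim1 also fell in CKO Tu against WT DMSO, by 0.33 (limma adjusted p = 0.013), a call lost without CKO Tu replicate 1 (limma adjusted p = 0.0503).

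Stim2 was at 6.69, 5.23 and 6.29 FPKM in CKO Tu, at 3.68, 3.82 and 3.89 FPKM in WT Tu, and at 6.04, 5.68 and 6.07 FPKM in WT DMSO. WT Tu stood below both other groups with no overlap, and CKO Tu overlapped WT DMSO. Stim2 fell to 0.641 times the WT DMSO level in WT Tu (log2 change -0.53 ± 0.08, limma adjusted p = 0.0014) and was 1.60 times as high in CKO Tu as in WT Tu (log2 change 0.55 ± 0.08, limma adjusted p = 0.00099). Between CKO Tu and WT DMSO the change was 0.02 (limma adjusted p = 0.84; 95% interval -0.16 to 0.21). As a share of both sensors, Stim2 was 76.7 ± 3.40% in CKO Tu, 70.1 ± 2.37% in WT Tu and 70.0 ± 1.5% in WT DMSO (SD, n = 3). The share did not overlap between CKO Tu and WT Tu (exact permutation p = 0.1, the smallest possible) and overlapped between WT Tu and WT DMSO (exact permutation p = 1).

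Orai1 (ENSMUSG00000049686, chromosome 5, 123015074 to 123030456, plus strand) forms the pore that STIM proteins open. It was at 12.4, 12.8 and 13.6 FPKM in CKO Tu, at 13.6, 17.8 and 18.6 FPKM in WT Tu, and at 22.2, 24.1 and 23.4 FPKM in WT DMSO. WT DMSO stood clear of both tunicamycin groups, while the highest CKO Tu library and the lowest WT Tu library, replicate 1, were almost level. Orai1 fell to 0.718 times the WT DMSO level in WT Tu (limma adjusted p = 0.0091), by 0.47 on the log2 scale, or by 0.27 once a trend on GC content was removed. It was at 0.776 times the WT Tu level in CKO Tu (log2 change -0.33, limma adjusted p = 0.035). That call was lost in 9 of 21 settings, with limma adjusted p of 0.106, 0.0885 and 0.0577 without CKO Tu replicate 1, 2 or 3, 0.103 and 0.107 without WT Tu replicate 2 or 3, and 0.0523 without WT DMSO replicate 3. Set against WT DMSO, Orai1 in CKO Tu was at 0.557 times the level (limma adjusted p = 0.00028).

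Orai3 (ENSMUSG00000043964, chromosome 7, 127769815 to 127775150, plus strand), a subunit that also forms mixed channels with ORAI1, was at 6.17, 6.15 and 6.07 FPKM in CKO Tu, at 4.04, 3.98 and 3.73 FPKM in WT Tu, and at 4.45, 4.85 and 4.41 FPKM in WT DMSO. CKO Tu was highest, WT DMSO next and WT Tu lowest, with no overlap. Orai3 was 1.57 times as high in CKO Tu as in WT Tu (log2 change 0.54 ± 0.06, limma adjusted p = 0.00021) and 1.34 times as high as in WT DMSO (limma adjusted p = 0.001), calls that held in all 21 settings. With the filter at FPKM of 5, Orai3 entered the test through the CKO Tu libraries alone, where it was higher. Its calls in that setting are thus no support for a rise. The fall of 0.18 ± 0.06 in WT Tu against WT DMSO (SE; limma adjusted p = 0.044) was lost in 15 of 21, among them with the replicate block (limma adjusted p = 0.0665) and with the GC trend removed (0.387). It was also lost without CKO Tu replicate 1, 2 or 3 (0.0677, 0.0718 and 0.0662), WT Tu replicate 2 or 3 (0.0768 and 0.117), or WT DMSO replicate 1, 2 or 3 (0.0652, 0.147 and 0.0711).

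Orai1 and Orai3 thus moved apart in CKO Tu. Orai1 made up 67.8 ± 1.16% of the 2 in CKO Tu, 80.7 ± 3.25% in WT Tu and 83.6 ± 0.505% in WT DMSO (SD, n = 3). CKO Tu was 12.9 percentage points below WT Tu with no overlap (exact permutation p = 0.1, the smallest possible), and WT Tu and WT DMSO overlapped (exact permutation p = 0.3). Orai2, the third paralog, was below the filter at 0.362, 0.603 and 0.836 FPKM on average in CKO Tu, WT Tu and WT DMSO.

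Partners of store-operated entry numbered 12, of which 7 were tested, and 4 rose and 1 fell in WT Tu against WT DMSO (2 and 1 with scaling to total fragments). Saraf, the ER membrane protein that shuts STIM1 off after refilling, was at 71.2 ± 3.67 FPKM in CKO Tu, 47.1 ± 2.49 FPKM in WT Tu and 22.8 ± 0.843 FPKM in WT DMSO (SD, n = 3). The 3 groups did not overlap, and Saraf was 2.07 times as high in WT Tu as in WT DMSO (limma adjusted p = 5.9e-06) and 1.51 times as high in CKO Tu as in WT Tu (limma adjusted p = 0.00016). Esyt2, a tether between the ER and the plasma membrane, rose by 0.48 ± 0.08 and the cation channel gene Trpm7 by 0.34 ± 0.09, and Slc35g1 changed by -0.37 ± 0.06 (SE). CKO Tu had 3 partners higher and 2 lower than WT Tu, or 42.9% and 28.6%, beside 18.7% and 19.6% of all genes tested.

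Calu (ENSMUSG00000029767, chromosome 6, 29348069 to 29377110, plus strand) encodes calumenin, a binder of calcium by EF hands in the ER and secretory pathway that also restrains SERCA2 in heart muscle. It was at 76.9, 80.6 and 79.9 FPKM in CKO Tu, at 78.2, 65.4 and 67.1 FPKM in WT Tu, and at 38.6, 33.3 and 34.7 FPKM in WT DMSO. Every tunicamycin library stood above every WT DMSO library, and CKO Tu overlapped WT Tu through WT Tu replicate 1 alone. Calu rose 1.98-fold in WT Tu against WT DMSO (log2 change 0.96 ± 0.08, limma adjusted p = 3.9e-05) and was 2.23 times the WT DMSO level in CKO Tu (limma adjusted p = 6.8e-06). The difference of 0.17 ± 0.08 between CKO Tu and WT Tu did not pass (limma adjusted p = 0.12). With WT Tu replicate 1 left out it was 0.25 and passed (limma adjusted p = 0.0135).

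Sdf4 (ENSMUSG00000029076, chromosome 4, 155992872 to 156013610, plus strand) encodes Cab45, a calcium binder of the same EF-hand family that sits mainly in the Golgi lumen. It was at 18.2, 17.6 and 17.5 FPKM in CKO Tu, at 17.1, 17.9 and 19.1 FPKM in WT Tu, and at 17.2, 16.5 and 18.1 FPKM in WT DMSO, and all 3 groups overlapped. Its change was 0.06 ± 0.06 in WT Tu against WT DMSO (limma adjusted p = 0.47; 95% interval -0.07 to 0.19) and -0.02 ± 0.06 in CKO Tu against WT Tu (limma adjusted p = 0.81; 95% interval -0.15 to 0.11). Calu made up 81.7 ± 0.664% of the FPKM of both binders in CKO Tu, 79.5 ± 2.23% in WT Tu and 67.2 ± 1.78% in WT DMSO (SD, n = 3). That share was 12.2 percentage points higher in WT Tu than in WT DMSO with no overlap (exact permutation p = 0.1, the smallest possible).

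**Figure D4:**
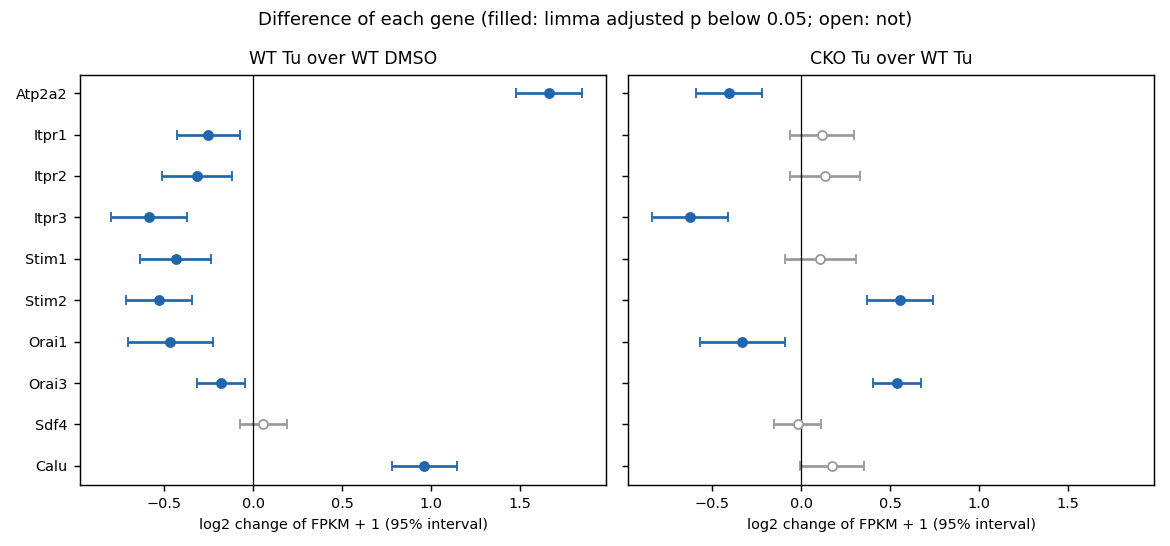
Change of each gene on the log2(FPKM + 1) scale in WT Tu over WT DMSO (left) and CKO Tu over WT Tu (right), with 95% intervals from limma, and filled points for adjusted p below 0.05. Atp2a2 and Calu lie far to the right with tunicamycin, and on the right Stim2 and Orai3 lie above 0 and Atp2a2, Itpr3 and Orai1 below it. WT Tu enters both panels, with opposite sign.

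Most tested genes of a list of calcium binders and chaperones, chiefly of the ER lumen, rose with Calu and Atp2a2. The list is wider than the buffers of the store, as it also holds the cochaperone Sdf2l1 and the cargo receptor Lman1. Of 21 listed, 15 passed the filter, and 12 rose and 0 fell in WT Tu against WT DMSO, with a median of 1.43. Sdf2l1 rose by 5.45 ± 0.09, Hsp90b1 (GRP94) by 4.54 ± 0.13, Pdia4 by 4.21 ± 0.06 and Hspa5 (BiP) by 3.20 ± 0.07 (SE). CKO Tu had 3 higher and 4 lower than WT Tu, or 20% and 26.7%, beside 18.7% and 19.6% of all genes tested. That count came to 2 higher and 0 lower without CKO Tu replicate 1 or 2, to 2 and 2 without CKO Tu replicate 3 or with the replicate block, and to 2 and 1 without WT Tu replicate 3. Pdia4 was lower in CKO Tu by 0.24 ± 0.06 on the log2 scale (SE; limma adjusted p = 0.014), a call lost without CKO Tu replicate 1 or 2. Of 11 reference genes of the unfolded protein response, 9 rose and 0 fell in WT Tu against WT DMSO, among them Herpud1, by 4.62, and Dnajb9, by 2.43. Of the same 11, 2 were higher and 3 lower in CKO Tu against WT Tu, or 18.2% and 27.3%. That stood beside 18.7% and 19.6% of all genes tested.

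Beyond the ER, calcium is taken up by mitochondria and exported through the plasma membrane and the Golgi. Of 13 genes of mitochondrial calcium uptake, 12 were tested, and limma called 0 in WT Tu against WT DMSO and voom on the recovered fragments likewise 0, while scaling to total fragments gave 3 lower. At an unadjusted limma p below 0.05 there were 2 of the 12, among them Vdac2 with a change of 0.12 on the log2 scale (limma adjusted p = 0.098). CKO Tu had 1 of the 12 higher and 7 lower than WT Tu, or 8.33% and 58.3%, with a median of -0.24. Of all genes tested 18.7% were higher and 19.6% lower, with a median of -0.0021. The outer membrane channel gene Vdac2 averaged 39.9 ± 1.49 FPKM in CKO Tu and 52.3 ± 1.73 FPKM in WT Tu (SD, n = 3; limma adjusted p = 0.00045). Of the pumps and exchangers of the plasma membrane and Golgi, 3 of 9 were tested, and Atp2b1, a plasma membrane calcium pump, rose by 0.30 ± 0.05 in WT Tu against WT DMSO (SE) while Atp2c1 and Tmem165 did not pass (limma adjusted p = 0.49 and 0.88). CKO Tu had 1 of the 3 higher and 0 lower than WT Tu, beside 18.7% and 19.6% of all genes tested.

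**Figure D5:**
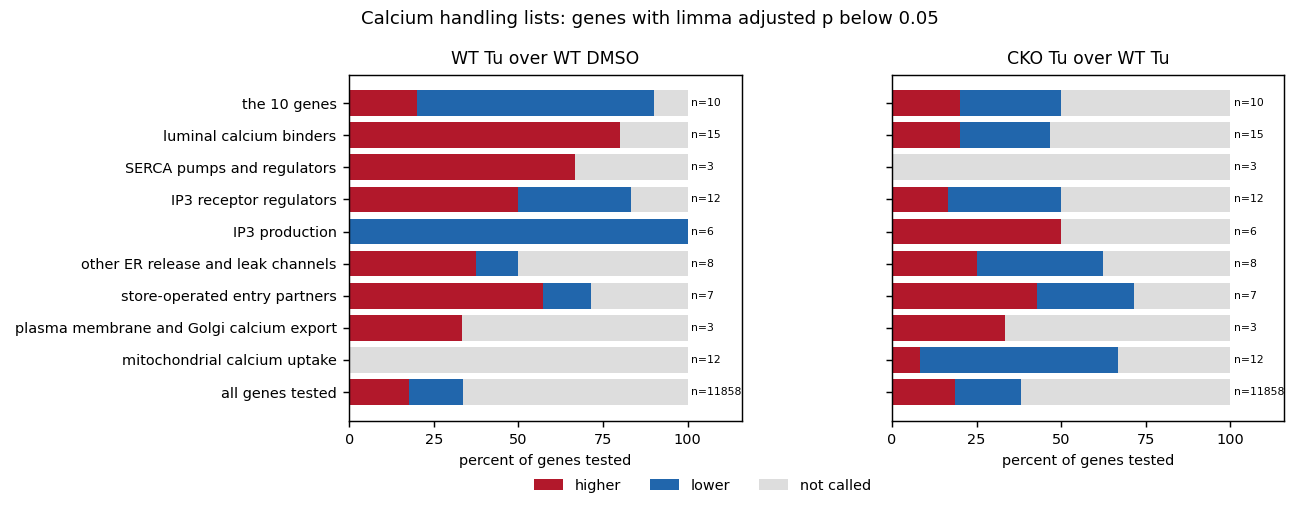
Percent of tested genes called higher, called lower and not called by limma among the 10 genes, in each calcium-handling list and among all genes tested, for WT Tu over WT DMSO (left) and CKO Tu over WT Tu (right), with the number tested at the end of each bar. In WT Tu against WT DMSO all 12 calls in the list of luminal binders are higher and all 6 among genes of IP3 production are lower.

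Compared per length, the levels of the members ran from the pump to the least abundant IP3 receptor. Atp2a2 was highest and Calu next in all 3 groups. In CKO Tu they were followed by Sdf4, Orai1, then Orai3, Stim2 and Itpr1, then Stim1 and Itpr2, and last Itpr3, where the genes named together had overlapping ranges between neighbours. In WT Tu Sdf4 and Orai1 overlapped, Itpr1 came next, Orai3 and Stim2 overlapped, and Stim1, Itpr2 and Itpr3 formed the low end with overlaps between neighbours. In WT DMSO the order was Orai1, Sdf4, Itpr1 with Stim2, Orai3, Itpr3 with Stim1, and Itpr2.

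Genes with the pattern nearest to a member were found by the root mean square distance of centred log2(FPKM + 1) values over the 9 libraries. Nearest to Atp2a2 were Mmp19, Nme6 and Oat, at 0.111, 0.118 and 0.118. Nearest to Calu were Hdlbp, Uggt1 and Zfand6, at 0.0555, 0.0583 and 0.0608. For Orai1 they were Mgat4b, Man2b2 and Pfas, at 0.0413, 0.0577 and 0.0662, for Stim1 they were Tfe3, P2ry2 and Mpst, at 0.0491, 0.0509 and 0.0514, and for Itpr2 they were Rfc3, Smarcd2 and Smg5, at 0.0416, 0.0539 and 0.0577. These distances are descriptions over libraries that share their groups.

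Annotated exons of Atp2a2, Itpr1, Itpr3, Orai1 and Calu overlap genes on the opposite strand, and the strand setting of the counting is not given in the sources used here. Itpr3 exons also overlap Mir7677 on the same strand, which had 0 fragments. The fragments assigned to each of these overlapping genes came to at most 0.340% of the member's own, the highest being Opn1sw beside Calu. How many fragments of a shared stretch were assigned to neither gene was not tested.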

How the data were processed

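RNA from 9 libraries of primary mouse hepatocytes was sequenced. The authors deposited FPKM per gene with each gene's length in bases. Alignment used HISAT2 2.2.1 and mm10, and gene assignment featureCounts 1.5.0-p3, per the submitters' processing notes. The annotation release and strand setting are not given in the sources used here. Each deposited FPKM value times gene length was a whole multiple of a single step per library, within 0.001 fragments, for 100% of detected genes, which gave the fragments behind it. The library size each deposited column implies was 0.948 to 1.07 times its fragment total.

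The 11858 of 54532 genes that reached FPKM 1 in 3 or more libraries were tested as log2(FPKM + 1) with limma 3.58.1 in R 4.3.3, over all 9 libraries, with group means and the trend option. Tests were two-sided and adjusted by Benjamini-Hochberg over all genes tested, with a threshold of 0.05. The pseudocount understates fold changes of low genes; ratios are of mean FPKM. A mean ± SD is over 3 libraries, and depth limits the low genes, such as Itpr3 with 64 to 86 fragments per CKO Tu library. Family shares were compared by exact two-sided permutation tests and were chosen after values were seen. Replicates differed beyond counting noise (chi-square per degree of freedom 3.13 to 21.6), so none was merged. The fit was also run on simulated fragments with the same dispersion for every gene and changes in WT Tu only. That setting leaves out the uneven spread of the real replicates, so it gives no error rate for these data.

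Members and gene lists were chosen with earlier results of these data known. The text names every member, up to 4 genes per list with the largest change in WT Tu against WT DMSO, and the 3 nearest genes for 1 member per role; markers and paralogs below the filter are named beside the results they touch. Some list members are not reported here. RefSeq windows were read for GRCm38.p6, the assembly of mm10. Alternatives were a pseudocount of 0.1, no filter, a filter at FPKM of 5, upper-quartile and total scaling, quantile normalization, voom on recovered fragments, no trend on intensity, library weights, fits to the groups compared, the replicate block, each library left out, and, added after seeing the data, removal of a GC trend with lowess (span 0.3).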

Additional observations from a re-analysis of the deposited data

How the results depend on the processing

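Directions of the called members held in all alternatives run, and Atp2a2, Itpr3, Stim2, Orai3 in CKO Tu against WT Tu, and Calu in WT Tu against WT DMSO, kept their calls wherever they were tested. Itpr3 passed the main filter through the WT libraries alone, where it was higher. Orai3 passed the filter at FPKM of 5 through the CKO Tu libraries alone, where it was higher. With the filter at FPKM of 5, tunicamycin in WT cells gave 5 members called, 2 higher and 3 lower, as Itpr2, Itpr3 and Stim1 were no longer tested and Orai3 did not pass (limma adjusted p = 0.0527). Leaving out 1 library gave 6 to 9, 4 to 6 and 5 to 6 members called in WT Tu against WT DMSO, CKO Tu against WT Tu and CKO Tu against WT DMSO. Deviations of same-numbered replicates from their group means had Pearson r of -0.0967 to 0.0208. That gave no sign of pairing by number, but with 3 libraries per group it cannot exclude pairing. With the replicate block 8, 5 and 6 members and 3696, 4248 and 5683 genes were called. Scaling to total fragments moved the median change of all genes in WT Tu against WT DMSO to -0.107 (1430 higher, 3108 lower, 31.5% higher, beside 52.7% as deposited), and upper-quartile scaling gave 1739 and 2375 (42.3%). Voom on the recovered fragments gave Itpr3 a log2 change of -1.33 in CKO Tu against WT Tu, and called Itpr2 in CKO Tu against WT DMSO (adjusted p = 0.0349). Calu in CKO Tu against WT Tu passed with total scaling (limma adjusted p = 0.0402), library weights (0.00607) and the GC trend removed (0.0314). Hspa5 in CKO Tu against WT Tu reversed to 0.27 with quantile normalization (limma adjusted p = 0.00292), beside -0.13 with the deposited scaling (0.168), and the cause was not tested. Among the gene lists, with no filter 1 rose and 1 fell of plasma membrane and Golgi export in WT Tu against WT DMSO, and luminal binders had 3 higher and 0 lower in CKO Tu against WT Tu. Library weights gave 3 higher and 5 lower reference genes of the unfolded protein response there.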
